A study of Homo sapiens with 12 samples.

Results

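Integrins that anchor epithelial cells to matrix, apart from the hemidesmosome pair of alpha6 with beta4, were examined in acini of HMT-3522 S1, a non-neoplastic human mammary epithelial cell line. The genes sought were ITGA2, ITGA3, ITGA5, ITGAV, ITGB1, ITGB3, ITGB5, ITGB6 and ITGB8, and every probe set whose platform annotation named exactly 1 of them was taken. This gave 22 of the 22215 probe sets that are not controls and covered 8 of the 9 genes. ITGB3 had 7 probe sets, ITGB1 had 5, ITGB5 had 4, ITGB8 had 2, and ITGA2, ITGA3, ITGA5 and ITGAV had 1 each. The 2 probe sets for ITGB6 also name a second gene, so by the rule ITGB6 has no value here.

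The 12 single-colour Affymetrix arrays held 4 from vehicle acini, 4 from cultures with 18-alpha-glycyrrhetinic acid (AGA) and 4 from cultures with 5-aza-2'-deoxycytidine (Aza). Vehicle acini are labelled apically polarized and both treated groups not polarized. AGA blocks gap junction communication and Aza inhibits DNA methyltransferases; each was present at 10 µM for 10 days from plating, renewed every 2 days. All 3 groups shared the same line at passage 55 to 60, H14 medium with 5% Matrigel (a laminin-rich basement membrane extract), 8 days with EGF and then 48 hours without it. The replicates carry the numbers 1 to 4 and no label says that they came from separate cultures beyond the design's word biological, so p-values measure the spread between these samples of 1 line.

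An integrin is a pair of 1 alpha and 1 beta subunit that spans the membrane, binds matrix outside the cell and is joined to actin inside by talin, kindlin and related adaptors. The beta1 subunit pairs with many alpha subunits, while alphaV pairs with beta1, beta3, beta5, beta6 or beta8. In mammary epithelium, adhesion to the basement membrane through these receptors is known to orient the cells and to sustain their survival and differentiation.

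Each level given here is a log2 intensity on quantile-normalized arrays, floored at 0, and the median over all probe sets was 4.84. The number of arrays limits the precision. The replicate 4 arrays of all 3 groups stood apart from the other 9 on the first principal component of probe sets above the median level (43.7% of the variance), so the differences of each gene's brightest probe set are also given without them, after the single genes. Among epithelial markers 5 of 7 measured genes had a mean above the median level, with KRT5 at 12.39 and KRT19 at 0. Their summed intensity was 9120 to 13800 in vehicle, 12600 to 15600 in AGA and 8740 to 13400 in Aza. Leukocyte markers reached the median level in 0 of 6 genes and platelet markers in 0 of 5, with PTPRC at 1.19. The leukocyte sums were 47.8 to 82.6 in vehicle, 34.9 to 105 in AGA and 27.8 to 73.1 in Aza, and the platelet sums 34.9 to 63.8, 55.6 to 72.9 and 36.2 to 71.5. Fibroblast markers passed it in 2 of 8 (COL1A1 the brightest, sums of 203 to 285, 149 to 238 and 246 to 292). Endothelial markers passed it in 1 of 5 (KDR, sums of 159 to 315, 104 to 230 and 190 to 330). The part of these cell types in the integrin values was not tested, and in bulk RNA fewer cells of a type and less RNA per cell cannot be told apart.

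The design asks which transcripts differ when apical polarity is lost. None of the 22 integrin probe sets passed in any comparison. In AGA against vehicle 0 of 22 had a limma adjusted p under 0.05, where 0.009% of all probe sets passed. Aza against vehicle likewise gave 0 of 22, against 0.009% of all, and Aza against AGA 0 of 22, against 0.0135%. For the mean of both treatments against vehicle the count was 0 of 22, against 0.0045%. At an unadjusted p under 0.05 limma gave 2 members in AGA (4.73% of all probe sets), 0 in Aza (3.27%), 0 between the treatments (4.76%) and 3 for both treatments (3.47%). A fit with the replicate number as a block and an intensity trend also called 0 members in each comparison, where it called 0.702% of all probe sets in AGA, 0.0045% in Aza, 0.851% between the treatments and 0% for both treatments. That fit gave 3, 1, 2 and 3 members at an unadjusted p under 0.05, against 11.8%, 6.47%, 11.2% and 8.58% of all probe sets. With the block alone these counts were 3, 1, 1 and 3, against 9.52%, 5.39%, 9.13% and 6.68%, and 0 members passed after adjustment, against 0.009%, 0%, 0.009% and 0% of all.

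The median integrin difference was -0.16 in AGA, with 9 of 22 probe sets above 0, while 49.9% of all probe sets lay above 0 and their median was 0. In Aza the median was -0.06, with 8 of 22 above 0 (49.7% of all). Between Aza and AGA it was 0.06, with 11 of 22 above 0 (49.6%), and for both treatments -0.10, with 9 of 22 (49.8%). On the deposited scale, without normalization between arrays, the median of all probe sets itself was -0.24 in AGA, -0.06 in Aza and 0.18 between Aza and AGA. There 6, 7 and 15 of the 22 integrin probe sets lay above 0, and relative to those shifts the integrin medians were -0.12, -0.07 and 0.05. The comparisons of AGA and of Aza share the vehicle arrays, so their values are given side by side and not as separate support for each other.

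**Figure D1:**
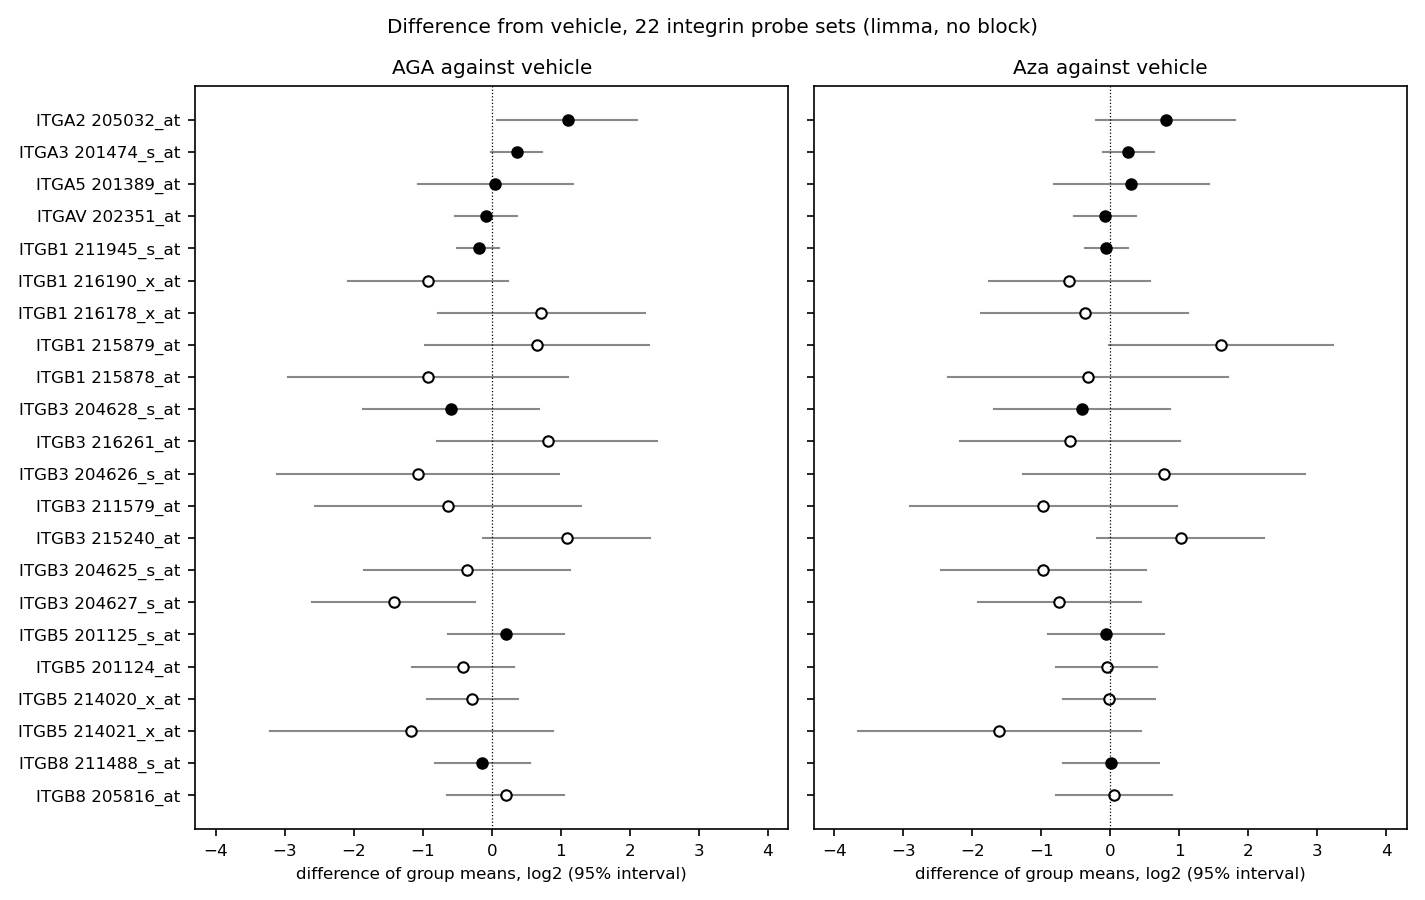
Difference in mean log2 level of AGA (left) and Aza (right) from vehicle for the 22 integrin probe sets, with 95% intervals from limma without a block; filled points are the brightest probe set of each gene and open points the others. Intervals are short for ITGB1 211945_s_at, ITGAV and ITGA3 and longest among the dim probe sets. That of the brighter ITGA5 (-1.07 to 1.18 in AGA) is longer than that of the dim ITGB8 211488_s_at (-0.82 to 0.55). The dotted line at 0 lies inside all but 2 of the AGA intervals (ITGA2 and ITGB3 204627_s_at) and inside all the Aza intervals.

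ITGB1 encodes the beta1 subunit shared by the collagen, laminin and fibronectin receptors below. Its bright probe set 211945_s_at read 11.57, 11.48, 11.59 and 11.71 in vehicle replicates 1 to 4. In AGA it read 11.45, 11.39, 11.16 and 11.58, and in Aza 11.59, 11.49, 11.41 and 11.61. This was the steadiest of the 22, with an SD of 0.14 over the 12 arrays, and the groups overlapped. Each AGA array lay below the vehicle array of its number, by 0.12, 0.08, 0.44 and 0.13, a mean difference of -0.19 (95% interval -0.50 to 0.11; limma adjusted p = 1). With block and trend the limma adjusted p was 0.172 (unadjusted 0.00532), and the difference was -0.07 on median-centred arrays and -0.35 on the deposited scale. Aza differed from vehicle by -0.06 (-0.37 to 0.25), lower in 2 of 4 pairs. For a transcript this bright a change of the mean by as much as 1 log2 unit lies outside both intervals.

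ITGA3 encodes alpha3, which with beta1 forms a receptor for laminins of the epithelial basement membrane. Its only probe set, 201474_s_at, read 6.53, 6.62, 6.32 and 5.94 in vehicle. The AGA arrays read 6.85, 6.70, 6.64 and 6.68, and the Aza arrays 6.64, 6.77, 6.57 and 6.48. All 4 AGA values lay above all 4 vehicle values, the only member for which these groups did not overlap; 2.52% of all probe sets were so separated, 1.72% in Aza (0 of 22 members) and 0.23% for both treatments (0 of 22). The difference was 0.36 ± 0.17 (SE, n = 4; 95% interval -0.01 to 0.73; limma adjusted p = 1), and 0.07 to 0.65 with the replicate block (limma adjusted p = 0.470). Aza exceeded vehicle in 4 of 4 pairs by 0.26 (-0.11 to 0.63; limma adjusted p = 1), with overlapping groups. Vehicle replicate 4, at 5.94, was the lowest of the 12 arrays. Without it the AGA difference was 0.22, without all replicate 4 arrays it was 0.24, and on the deposited scale it was 0.09.

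ITGA2 encodes alpha2, a collagen-binding partner of beta1. Its only probe set, 205032_at, is dim, with deposited intensities from 4.89 to 19.0. In vehicle it read 2.45, 2.30, 2.17 and 3.50, in AGA 2.60, 3.83, 4.40 and 3.98, and in Aza 4.14, 3.50, 2.52 and 3.45. Vehicle replicates 1 to 3 were the lowest 3 of the 12 arrays, and vehicle replicate 4 lay among the treated values, so the groups overlapped. AGA was higher in 4 of 4 pairs, by 0.15, 1.53, 2.22 and 0.48, with a mean of 1.10 ± 0.46 (SE, n = 4; interval 0.08 to 2.11; limma adjusted p = 1, and 0.543 with the replicate block). Aza was higher in 3 of 4 pairs, by a mean of 0.80 (-0.21 to 1.81; limma adjusted p = 1). Both treatments together differed from vehicle by 0.95 (0.07 to 1.82; limma adjusted p = 1). AGA and Aza differed from each other by -0.29 (-1.31 to 0.72). The AGA difference rests on low intensities: it was 0.41 on log2(value + 16) and 0.10 with a floor of 16. It was 1.39 without vehicle 4, 1.46 without AGA 1 and 1.31 without all replicate 4 arrays.

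ITGA5 encodes alpha5, which with beta1 forms the classical fibronectin receptor. Its probe set 201389_at read 6.79, 6.94, 6.57 and 8.24 in vehicle. The AGA arrays read 6.79, 6.50, 7.26 and 8.19, and the Aza arrays 7.06, 6.98, 7.05 and 8.64. In each group replicate 4 was the highest, and the groups overlapped. AGA differed from vehicle by 0.05 (95% interval -1.07 to 1.18), or -0.36 to 0.47 with the replicate block. Aza was higher in 4 of 4 pairs, by 0.28, 0.04, 0.49 and 0.41, a mean of 0.30 (-0.82 to 1.43; limma adjusted p = 1), or -0.11 to 0.72 with the block (limma adjusted p = 0.926). In fits without the block that ITGA5 value was 0.67 without vehicle 4, 0.11 without vehicle 3 and -0.10 without Aza 4. Leaving out vehicle 4 or Aza 4 alone leaves the other replicate 4 arrays unmatched, so those values also hold the high level of replicate 4. The value without all replicate 4 arrays is given below. Aza also exceeded AGA in 3 of 4 pairs, by a mean of 0.25 (-0.88 to 1.37).

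ITGAV encodes alphaV, the common partner of the beta3, beta5, beta6 and beta8 subunits. Probe set 202351_at read 8.81, 9.74, 9.31 and 8.98 in vehicle. It read 9.05, 9.26, 9.21 and 9.01 in AGA, and 9.08, 9.28, 9.23 and 8.93 in Aza. Vehicle held both the lowest and the highest of the 12 arrays. Both treatments differed from vehicle by -0.08 (95% interval -0.53 to 0.37 in each), with AGA higher in 2 of 4 pairs and Aza in 1 of 4. Between Aza and AGA the difference was 0.00 (-0.45 to 0.44).

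ITGB5 encodes beta5, which with alphaV binds vitronectin. Its brightest probe set, 201125_s_at, read 6.88, 7.15, 7.14 and 6.19 in vehicle. It read 7.11, 7.49, 7.52 and 6.07 in AGA, and 6.74, 7.19, 7.17 and 6.03 in Aza. Replicate 4 was the lowest in every group, and the groups overlapped. AGA differed by 0.21 (95% interval -0.63 to 1.05; limma adjusted p = 1) and Aza by -0.06 (-0.90 to 0.78). The AGA pairs for ITGB5 differed by 0.24, 0.34, 0.38 and -0.12, and the interval with the replicate block was -0.05 to 0.47. On the deposited scale the AGA value took the other sign, at -0.05. In fits without the block it was -0.01 without vehicle 4 and 0.54 without AGA 4. Leaving out a single replicate 4 array leaves those of the other groups unmatched, so these values also hold the low level of replicate 4. Aza lay below AGA in 4 of 4 pairs, by 0.37, 0.31, 0.36 and 0.04, a mean difference of -0.27 (-1.11 to 0.57), or -0.53 to -0.01 with the replicate block (limma adjusted p = 0.538), and it was -0.08 on the deposited scale.

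The other ITGB5 probe sets all lay below 0 in AGA. Probe set 201124_at read 5.79, 5.99, 6.13 and 4.79 in vehicle, 5.64, 5.59, 5.21 and 4.58 in AGA, and 5.63, 5.99, 5.63 and 5.23 in Aza. It was lower in AGA in 4 of 4 pairs, by a mean of -0.42 (interval -1.16 to 0.32) (limma adjusted p = 1). With the replicate block the interval was -0.83 to -0.01 (limma adjusted p = 0.521). Probe set 214020_x_at differed by -0.28 in AGA and -0.02 in Aza. The dim 214021_x_at read 2.82, 3.60, 2.63 and 0.00 in vehicle, 0.00, 3.21, 1.18 and 0.00 in AGA, and 0.22, 2.40, 0.00 and 0.00 in Aza. On 5 of 12 arrays its deposited value was below 1, and its differences of -1.17 in AGA and -1.61 in Aza had intervals of -3.22 to 0.89 and -3.66 to 0.45, or -2.79 to -0.43 for Aza with the replicate block (limma adjusted p = 0.912). Aza against AGA on these 3 probe sets gave 0.37, 0.26 and -0.44.

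ITGB8 encodes beta8, which with alphaV is known to release TGF-beta from its latent complex. Probe set 211488_s_at read 5.02, 4.40, 4.09 and 4.40 in vehicle. It read 4.71, 4.66, 3.81 and 4.17 in AGA, and 4.93, 4.22, 3.88 and 4.90 in Aza. The groups overlapped, with differences of -0.14 in AGA (95% interval -0.82 to 0.55) and 0.01 in Aza (-0.68 to 0.70). The second probe set, 205816_at, ranged from 2.92 to 4.69 over the 12 arrays and differed by 0.20 and 0.05. Both ITGB8 probe sets had means below the median level, at 4.43 and 3.68.

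ITGB3 encodes beta3, which pairs with alphaV in a vitronectin receptor and with the platelet subunit alphaIIb. All of its 7 probe sets had means below the median level, from 1.06 to 3.25. The brightest by its mean, 204628_s_at, read 2.50, 3.90, 3.82 and 4.12 in vehicle, 2.85, 3.68, 1.31 and 4.12 in AGA, and 2.81, 3.90, 2.92 and 3.07 in Aza. It differed by -0.59 in AGA (95% interval -1.87 to 0.69) and -0.41 in Aza (-1.69 to 0.87), and the AGA mean was drawn down by replicate 3. Probe set 204627_s_at had an unadjusted p of 0.023 in AGA in limma without the block (adjusted p = 1, n = 4), the lowest of the 22 in that fit but not in the fits with the block. It read 2.65, 1.01, 2.10 and 1.35 in vehicle, 0.00, 0.00, 1.44 and 0.00 in AGA, and 0.58, 0.18, 1.02 and 2.35 in Aza. It was lower in AGA in 4 of 4 pairs, by a mean of -1.42 (-2.60 to -0.24), with 3 AGA arrays at the floor, and with a floor of 16 it was at 0.00.

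Probe set 215240_at of ITGB3 went the other way. It read 2.16, 1.71, 0.46 and 0.00 in vehicle, 0.88, 3.11, 2.75 and 1.93 in AGA, and 2.03, 1.90, 2.04 and 2.44 in Aza. Both treatments together were higher than vehicle by 1.05 (interval 0.00 to 2.11; limma adjusted p = 1), in 3 of 4 pairs. Over all 7 probe sets of ITGB3, 2 were above 0 and 5 below in AGA, from -1.42 to 1.09, and again 2 above and 5 below in Aza, from -0.97 to 1.02. In Aza against AGA 216261_at was lower in 4 of 4 pairs (-1.39) without overlap of those groups, where 2.58% of all probe sets did not overlap. In the same comparison 204626_s_at was higher in 4 of 4 pairs (1.86). In limma without the block no adjusted p of ITGB3 was below 1, and its probe sets gave no common direction.

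**Figure D2:**
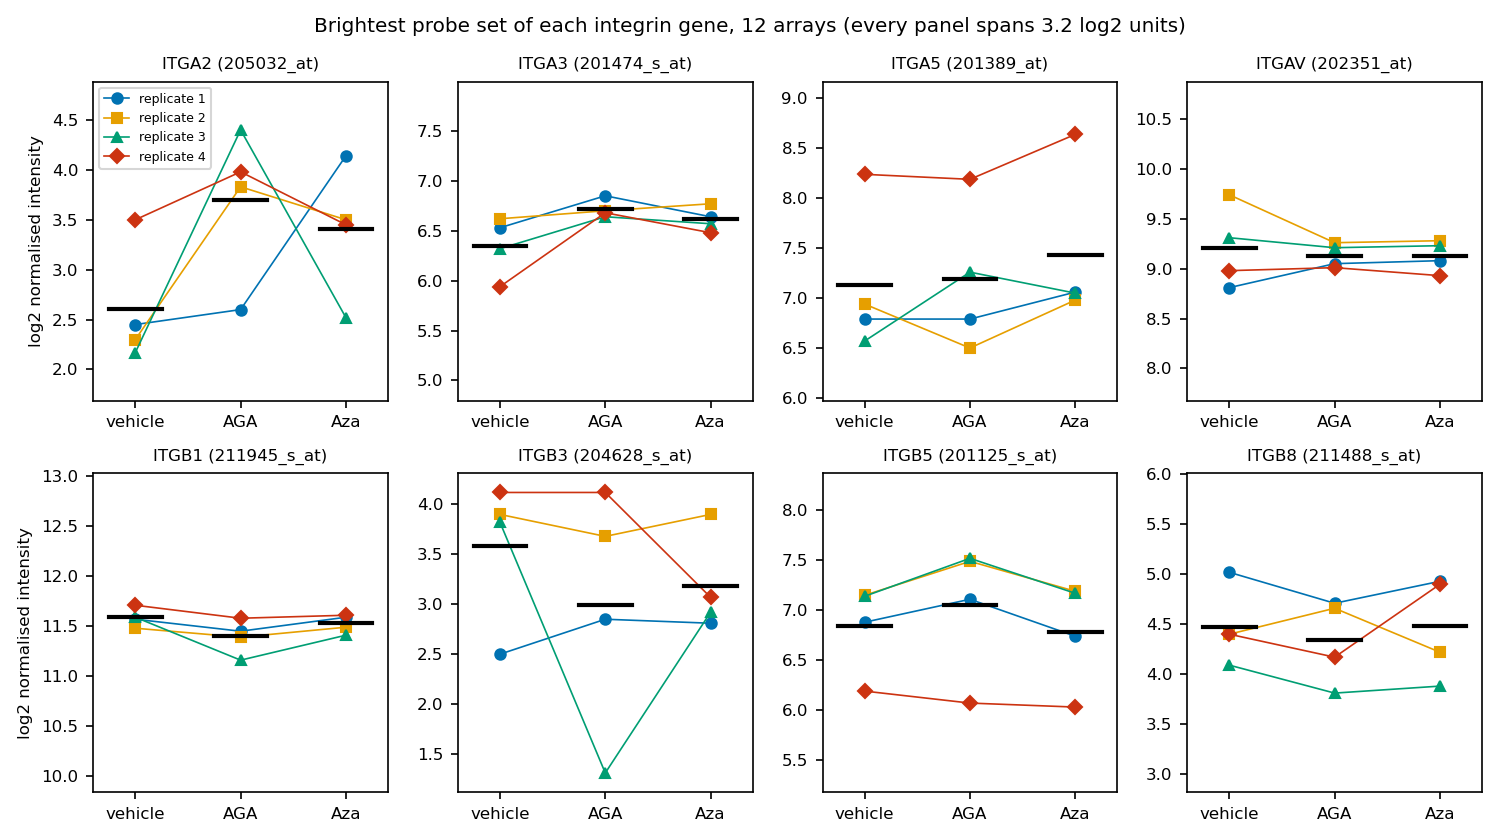
Log2 normalised intensity of the brightest probe set of each of the 8 genes in vehicle, AGA and Aza; points are single arrays, coloured lines join arrays of the same replicate number, and black bars are group means (n = 4). Every panel spans the same number of log2 units around its own centre. ITGB1 is nearly flat, the 4 AGA points of ITGA3 lie above its 4 vehicle points, and replicate 4 stands high for ITGA5 (8.19 to 8.64) and low for ITGB5 (6.03 to 6.19).

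Counted by pairs, 2 of 22 integrin probe sets (ITGA2 and ITGA3) were higher in AGA in all 4 pairs, where 9.15% of all probe sets were. Another 4 of 22 were lower in all 4 pairs (9.06% of all), namely ITGB1 211945_s_at and 215878_at, ITGB3 204627_s_at and ITGB5 201124_at. In Aza 3 of 22 were higher in all 4 pairs (7.61% of all), namely ITGA3, ITGA5 and ITGB1 215879_at, and 0 of 22 were lower in all 4 (7.12%). In Aza against AGA 2 of 22 were higher in all 4 pairs (8.66% of all), ITGB1 211945_s_at and ITGB3 204626_s_at, and 2 were lower (8.76%), ITGB3 216261_at and ITGB5 201125_s_at. For both treatments 2 were higher (8.41%), ITGA2 and ITGA3, and 2 lower (8.76%), ITGB1 211945_s_at and ITGB3 204627_s_at. In either direction the counts were 6, 3, 4 and 4 of 22, against 18.2%, 14.7%, 17.4% and 17.2% of all probe sets.

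Replicate 4 arrays did not overlap the other 9 for a probe set each of ITGA5 and ITGB5. The 3 replicate 4 arrays of ITGA5 read 8.19 to 8.64 and the other 9 read 6.50 to 7.26, a difference in means of 1.47. For ITGB5 201125_s_at the replicate 4 arrays read 6.03 to 6.19 and the other 9 read 6.74 to 7.52, a difference of -1.06. Thus 1 of 22 was higher on all replicate 4 arrays (7.51% of all probe sets) and 1 of 22 lower (7.11%), together 2 against 14.6% of all probe sets and 26% of those above the median level. Both kept the separation on the deposited scale (1.32 and -1.19) and on median-centred arrays (1.44 and -1.07). The count of separated members was 2 on the deposited scale (10.1% of all probe sets) and 3 on median-centred arrays (13.7%). The gap was alike in each group for ITGA5, at 1.47 in vehicle, 1.34 in AGA and 1.61 in Aza. For ITGB5 it was -0.86, -1.30 and -1.0. With overlapping arrays, the other ITGB5 probe sets differed by -0.87 (201124_at), -0.18 (214020_x_at) and -1.78 (214021_x_at, at the floor on all 3 replicate 4 arrays), and ITGB3 211579_at by 1.35. What distinguishes the replicate 4 samples is not given in the labels, and as the arrays were set apart from the data no test is given.

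Without the 3 replicate 4 arrays no member passed in any comparison. The AGA difference was then 1.31 for ITGA2, 0.24 for ITGA3, 0.09 for ITGA5, -0.11 for ITGAV, -0.20 for ITGB1 211945_s_at, -0.80 for ITGB3 204628_s_at, 0.32 for ITGB5 201125_s_at and -0.11 for ITGB8 211488_s_at. The Aza difference was 1.09 for ITGA2, 0.17 for ITGA3, 0.27 for ITGA5, -0.09 for ITGAV, -0.05 for ITGB1, -0.20 for ITGB3, -0.03 for ITGB5 and -0.16 for ITGB8 on the same probe sets. Of these values only that of ITGB8 in Aza took the other sign. Among the other probe sets, those that took the other sign in Aza included ITGB1 215878_at (0.46), and ITGB3 215240_at for both treatments was at 0.68. In Aza 9 of 22 members then lay above 0, beside 8 of 22 with all arrays. On the deposited scale the AGA difference took the other sign for ITGA5 (-0.23), ITGB5 201125_s_at (-0.05) and ITGB8 205816_at (-0.03), the Aza difference did for ITGB8 211488_s_at (-0.05), and on median-centred arrays the Aza difference did for ITGB1 211945_s_at (0.03).

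Of the sum of squares over the 12 arrays, replicate number held 89.7% for ITGA5, 91.8% for ITGB5 201125_s_at, 74.7% for ITGB8 211488_s_at and 68.7% for ITGAV, with the groups at 3.78%, 5.31%, 2.78% and 2.61%. ITGA3 had 44.7% between groups and 34.6% between numbers, ITGA2 37.7% and 10.7%, and ITGB1 211945_s_at 34.5% and 45.2%. ITGB3 204628_s_at had 9.62% and 47.0%. The median over the 22 was 18.5% between groups and 34.4% between numbers, beside 12.5% and 40.8% over all probe sets. Over all probe sets above the median level it was 10.9% and 59.2%, and 15 of the 22 lie below that level.

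**Figure D3:**
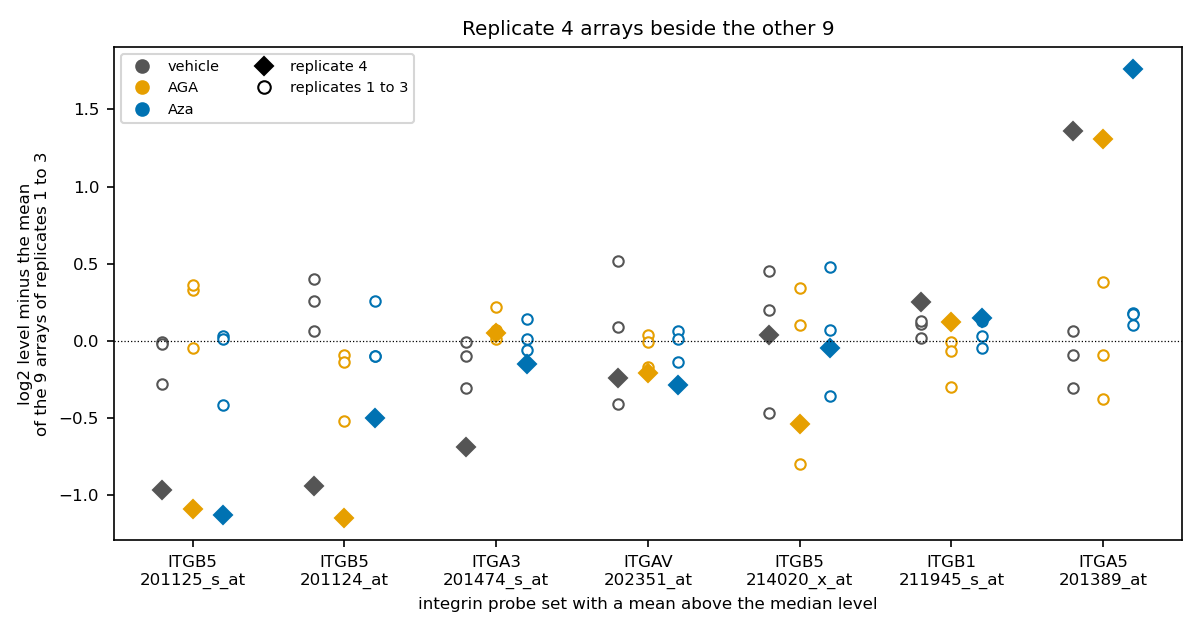
Log2 level of each array minus the mean of the 9 arrays of replicates 1 to 3, for the 7 integrin probe sets above the median level; filled diamonds are the 3 replicate 4 arrays, open circles the other 9, and colours the groups. The diamonds lie above all circles for ITGA5 and below all circles for ITGB5 201125_s_at, and among or next to the circles for ITGAV, ITGB1 and ITGB5 214020_x_at.

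The spread over the 12 arrays varied with the level. The 7 probe sets above the median level had a median SD of 0.41 over the 12 arrays, beside 0.29 for all probe sets above it. The 15 below it had 1.02, beside 1.05 for all below it. This SD also holds the differences between replicate numbers, so it is not the precision of a paired difference. For ITGA5 the SE of the AGA difference was 0.51 without the block and 0.18 with it. For ITGB5 201125_s_at it was 0.38 and 0.11. The 4 other ITGB1 probe sets were all among the 15, with means from 1.37 to 2.95 and AGA differences of -0.92, 0.72, 0.65 and -0.93, so that 2 of 5 ITGB1 probe sets lay above 0 in AGA and 1 of 5 in Aza. ITGB1 215879_at had the largest Aza difference above 0 of any member, 1.61 (95% interval -0.02 to 3.23; limma adjusted p = 1), with the deposited value below 1 on 2 of 12 arrays. These dim probe sets leave ITGB1 to be read from 211945_s_at.

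**Figure D4:**
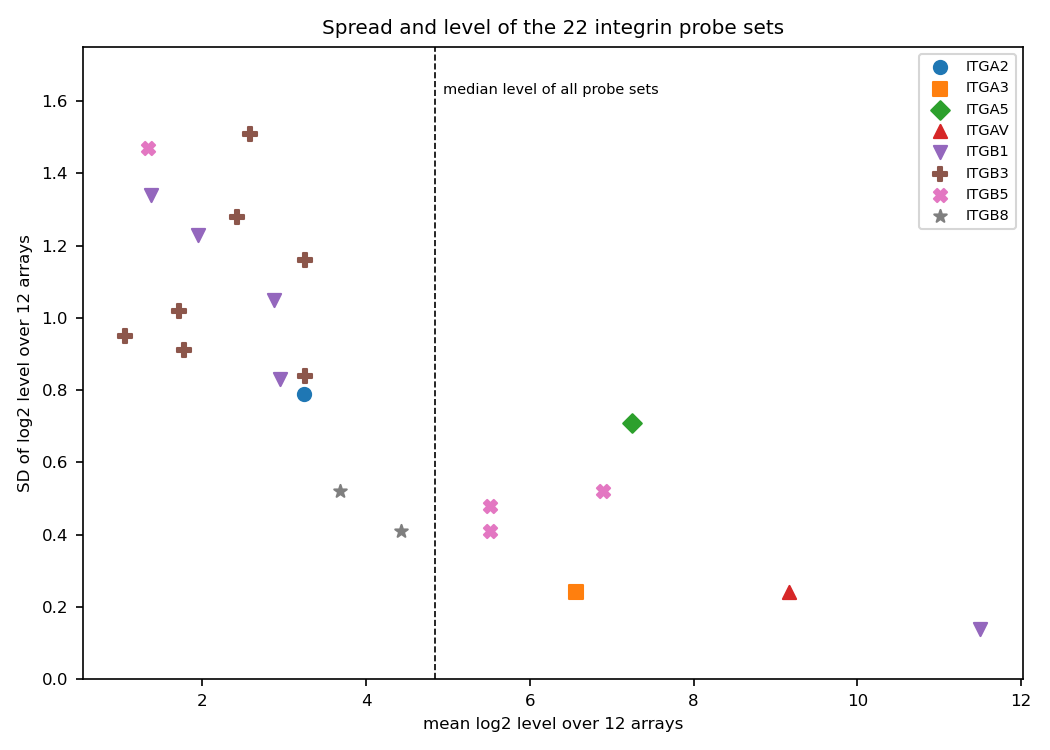
Mean log2 level (x axis) and SD of log2 level (y axis) over the 12 arrays for the 22 integrin probe sets, with symbols for the genes; the dashed line is the median level of all probe sets. All ITGB3 and ITGB8 points, 4 of the 5 ITGB1 points, 1 of the 4 ITGB5 points and ITGA2 lie left of the line, and ITGB1 211945_s_at has the lowest SD (0.14).

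DNA methyltransferases act on CG dinucleotides, which is the reason for giving the promoter sequence of 2 members beside their Aza values. ITGA2 is shown because it had the largest difference among the brightest probe sets, and ITGA5 because it was higher in Aza in 4 of 4 pairs. The sequences are the 250 bases before the annotated start, from RefSeq (build GRCh38.p14), for ITGA2 on the plus strand of chr5:52989102-52989351 and for ITGA5 on the minus strand of chr12:54419267-54419516, with each CG in capitals.
ITGA2: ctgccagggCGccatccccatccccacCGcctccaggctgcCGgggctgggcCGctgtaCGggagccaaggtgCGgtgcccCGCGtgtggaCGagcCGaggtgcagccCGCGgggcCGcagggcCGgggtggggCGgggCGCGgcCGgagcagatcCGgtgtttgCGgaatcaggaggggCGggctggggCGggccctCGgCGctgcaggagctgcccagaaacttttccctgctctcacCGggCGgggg
ITGA5: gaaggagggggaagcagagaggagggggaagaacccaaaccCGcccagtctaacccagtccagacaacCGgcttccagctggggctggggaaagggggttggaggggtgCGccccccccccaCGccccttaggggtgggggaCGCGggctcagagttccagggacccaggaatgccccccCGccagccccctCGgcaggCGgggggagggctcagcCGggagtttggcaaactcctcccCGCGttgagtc

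The ITGA2 stretch holds 26 CG, a number reached by 19.6% of the 35116 promoters in the table, whose median was 11; the count is the same on both strands and 93.9% of them hold at least 1. The ITGA5 stretch holds 12, reached by 48.5%. Of the 9 genes 7 had an entry, and ITGA3 and ITGB3 had none. Counts were 21 for ITGB8, 18 and 1 for the 2 starts of ITGAV, 32 and 4 for those of ITGB1, 23, 19 and 9 for the 3 of ITGB5 and 0 for ITGB6. Aza differences of the brightest probe sets were 0.80 for ITGA2, 0.30 for ITGA5, 0.01 for ITGB8, -0.06 for ITGB1, -0.06 for ITGB5 and -0.08 for ITGAV. Methylation was not measured, and none of these differences passed.

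Genes that act with these receptors were followed in 5 lists, with the brightest probe set per gene. Of 102 genes 91 had a probe set of their own. Of these 91 brightest probe sets, 66 remained when dim probe sets, those below the median level, were left out. The percentages of all probe sets given beside the counts also cover the dim ones, so they are not from a like set. Whether the lists exceed other probe sets of like level was not tested. Limma without a block called 0 of 91 in each of the 4 comparisons (4 in AGA, 1 in Aza, 1 between the treatments and 1 for both treatments at an unadjusted p under 0.05, where 4.73%, 3.27%, 4.76% and 3.47% of all probe sets were). With the block alone 0 of 91 passed in each comparison, and the counts at an unadjusted p under 0.05 were 13, 6, 15 and 9 (9.52%, 5.39%, 9.13% and 6.68% of all probe sets). With block and trend those counts were 27, 13, 19 and 18 (11.8%, 6.47%, 11.2% and 8.58%). After adjustment that fit passed 2 of 91 in AGA (0.702% of all probe sets) and 2 of 91 in Aza against AGA (0.851%), 1 in each direction each time, and 0 of 91 in the other comparisons.

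Among 16 measured adaptors and cytoskeletal linkers 0 passed in any fit, and the median was 0.04 in AGA, with 9 above 0, and -0.03 in Aza, with 7 above 0. Lowest in p were PARVA, a parvin that links integrin-linked kinase to actin (0.64 in AGA, its other probe sets at 0.33 and 0.21), and ZYX, the focal adhesion protein zyxin (-0.39 in AGA, its other probe set at 0.03). In Aza they were FERMT1, the epithelial kindlin (0.27, higher in 4 of 4 pairs, its other probe set at -0.21), and ACTN1, an alpha-actinin (-0.22, its others at -0.20 and 0.03). All 4 had a limma adjusted p of 1.

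Among 19 signalling enzymes and their adaptors 0 passed, with medians of -0.03 in AGA (9 above 0) and 0.06 in Aza (10 above 0). The kinase PTK2B, a relative of focal adhesion kinase, was lower in 4 of 4 pairs in both treatments, at -0.43 in AGA and -0.22 in Aza, but its other probe set was at 0.40 and 0.08. The GTPase CDC42 was at 0.32 in AGA and the docking protein NEDD9 at 0.33 in Aza, each higher in 4 of 4 pairs, and their other probe sets ranged from -0.82 to -0.04 and stood at -0.07. Between Aza and AGA the exchange factor DOCK1 was at 0.55 and the scaffold GIT1 at -0.53.

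Among 23 measured ligands the median was -0.17 in AGA (8 above 0) and -0.01 in Aza (11 above 0). THBS1, the matrix protein thrombospondin 1, fell in AGA with block and trend, by 1.20 ± 0.21 (SE, n = 4; adjusted p from limma 0.0158, but 0.406 with the block alone and 1 with neither). Its level was 6.01 ± 0.76 in vehicle, 4.81 ± 1.10 in AGA and 5.26 ± 0.72 in Aza (SD, n = 4), lower in AGA in 4 of 4 pairs, and its other probe sets were at 0.20, -0.59, -1.49 and -1.14. The probe set at 0.20 read at most 0.90 on any array, near the floor. Aza differed from vehicle by -0.75 (adjusted p from limma 0.548 with block and trend). Without the replicate 4 arrays the AGA difference of THBS1 was -1.02 and did not pass (adjusted p from limma 0.057). NID1, the basement membrane protein nidogen 1, was higher in Aza than in AGA by 1.14 ± 0.18 with block and trend (SE, n = 4; adjusted p from limma 0.00744, but 0.286 with the block alone and 1 with neither). It stood at 8.28 ± 1.28 in Aza, 7.14 ± 1.73 in AGA and 7.57 ± 1.65 in vehicle (SD, n = 4), and its second probe set was at 1.07 (limma adjusted p = 0.0467 with block and trend). Its replicate 4 arrays were the highest of each group, at 9.93 in vehicle, 9.49 in AGA and 10.13 in Aza, and without them the difference was 1.31 (adjusted p from limma 0.0179). The second NID1 probe set was then at 1.36 and did not pass (adjusted p from limma 0.0755). Below the threshold were TNC (1.18 in AGA, its other probe set at -0.51), COL1A2 (-1.03 in Aza, its other at -0.54), TGFB1 (0.27 in Aza and 0.44 above AGA, its other at 0.62 and 1.17) and LAMB3 (-1.89 in Aza against AGA). The values of TNC and COL1A2 are from dim probe sets, with means of 1.17 and 3.65 in vehicle. LAMB3 stood at 3.74 ± 2.19 in Aza and 5.63 ± 0.63 in AGA (SD, n = 4), lower in 3 of 4 pairs.

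Among 17 lateral partners and traffic genes the median was 0.15 in AGA (13 above 0) and 0.03 in Aza (11 above 0). SLC3A2, the CD98 heavy chain, which binds beta integrin tails and also carries amino acid transporters, rose in AGA with block and trend by 0.64 ± 0.11 (SE, n = 4; adjusted p from limma 0.0124, but 0.413 with the block alone and 0.996 with neither). It read 8.12 ± 0.24 in vehicle, 8.76 ± 0.35 in AGA and 8.10 ± 0.26 in Aza (SD, n = 4), and Aza differed from AGA by -0.67 (limma adjusted p = 0.00704 with block and trend, 0.259 with the block alone). Without the replicate 4 arrays the values were 0.63 (adjusted p from limma 0.0651, not past the threshold) and -0.72 (0.0332). In Aza against AGA 14 of the 17 genes lay below 0, with a median of -0.15. Over all probe sets 49.6% lay above 0 in that comparison, 49.9% in AGA and 49.7% in Aza. The comparisons of AGA with vehicle and of Aza with AGA share the AGA arrays, and the list as a whole was not tested. The recycling GTPase ARF6 was at -0.22 in AGA, with its other probe sets at -0.64 and -0.35. BSG, the membrane glycoprotein basigin, was at 0.16 in Aza and the recycling GTPase RAB25 at -0.78. Among 16 genes for other integrin subunits, the integrin-like ITGBL1 included, 0 passed, with medians of 0.09 in AGA and 0.10 in Aza (10 above 0 in each). Lowest in p were ITGA1 (1.22) and ITGBL1 (-0.53, its other probe set at -0.19) in AGA, and the leukocyte subunits ITGB2 (2.04) and ITGAX (-1.15) in Aza. In Aza against AGA they were ITGA9 (1.43) and ITGA1 (-1.16). All group means of ITGA1, ITGA9, ITGB2 and ITGAX lay below the median level of 4.84. ITGB2 stood at 0.93 ± 0.67 in vehicle and 2.97 ± 1.53 in Aza, and ITGAX at 1.63 ± 1.12 and 0.48 ± 0.53 (SD, n = 4).

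After the mean of each replicate number was subtracted, the gene most like each integrin over the 12 arrays was sought among 9660 probe sets above the median level. For ITGB1 it was ARGLU1 (r = 0.984), for ITGA2 RNASEH1 (0.983), for ITGB5 DSTN (0.965) and for ITGA3 PACS2 (0.938). For ITGA5 it was RRS1 (0.932), for ITGB3 RPL22 (0.929), for ITGAV BRAP (0.925) and for ITGB8 MAT2A (0.889). Each r is the highest of 9660 over 12 arrays that share replicate means, so it is a description only. ARGLU1 differed by -0.30 in AGA and -0.09 in Aza, and DSTN, which encodes the actin-severing protein destrin, by 0.08 and -0.03.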

How the data were processed

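RNA of the 12 samples was measured on Affymetrix arrays, 1 per sample. The deposited values are linear intensity per probe set, made with GCOS per the submitters' processing notes, with algorithm and scaling not given in the sources used here; deposited medians per array ran from 23.3 to 35.9, and 5.26% to 7.94% of values were below 1. Detection calls were not used.

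The 62 control probe sets were left out. Values below 1 were set to 1, log2 was taken, and, as array medians then differed by 0.62 (limit 0.5), arrays were quantile normalized. The test was limma's (version 3.58.1, R version 4.3.3; two-sided lmFit with eBayes over the 12 arrays). Benjamini-Hochberg adjustment covered all 22215 probe sets, threshold 0.05. Intervals are 95% intervals from the fit. The 3 fits (no block, block, block and trend) were tested on simulated data for AGA against vehicle. Names come from the platform annotation: 19064 probe sets carry 1 symbol, 1043 several and 2108 none, and 19052 matched the GRCh38.p14 gene table.

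Over probe sets above the median level, deviations from the group means correlated above 0.1 between same-numbered arrays in 12 of 12 pairs (0.37 to 0.788; at most 0.192 between other arrays of different groups), and over all probe sets by 0.0589 to 0.261, above 0.1 in 6 of 12 pairs (otherwise at most 0.0292). The pairing thus comes from the data and holds at the higher levels; a replicate block was tried as an alternative, as were an intensity trend in the prior variance, other scalings and floors, a filter and left-out arrays.

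The integrins and lists were chosen with earlier results of these data known. Values of every array are given for the brightest probe set of each gene and for any other with an unadjusted p under 0.05 without or with the block. From the lists, the genes named passed in a fit or had the lowest p in their direction; likeness was Pearson's r.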

Additional observations from a re-analysis of the deposited data

Results flagged for a closer look

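Of 66 groups of 4 arrays (22 probe sets in 3 groups), 5 held an array whose gap to the nearest of the others took up more than 0.829 of the group's range; chance gives about 1 in 20. ITGA5 201389_at was high on Aza replicate 4, at 8.64, beside 6.98 to 7.06 on the other 3. ITGB8 205816_at was low on AGA replicate 3, at 2.92, beside 4.05 to 4.11. ITGB3 216261_at was low on Aza replicate 1, at 0.48, beside 3.14 to 3.59. ITGB3 204627_s_at was high on AGA replicate 3, at 1.44, with the other 3 at 0.00. ITGB5 214021_x_at was high on Aza replicate 2, at 2.40, beside 0.00 to 0.22. The last 3 are probe sets below the median level of 4.84, as is ITGB8 205816_at. For no integrin probe set did the AGA and Aza effects differ past the threshold (limma, Aza against AGA), nor did all AGA pairs move one way and all Aza pairs the other.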

How the results depend on the processing

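No integrin probe set passed under any of the 23 alternatives, in any of the 4 comparisons (0 of 22 each time, or 0 of the 7 tested where dim probe sets were left out), and 0 of 1942 single differences compared crossed the threshold; 39 moved by more than 1 SD between pairs. The replicate block left the integrin count at 0 of 22 and changed no other call on these genes. With block and trend together the lists of associated genes had 2 calls in AGA and 2 in Aza against AGA; without all replicate 4 arrays that fit gave 2 in Aza against AGA. The cause was not tested. The median integrin difference was -0.14 in Aza and 0.23 in Aza against AGA on the deposited scale. Leaving out 1 array gave medians of -0.22 to 0.00 (without AGA 3) in AGA, -0.17 (without Aza 2) to 0.01 (without vehicle 2) in Aza, -0.04 (without AGA 1) to 0.21 (without Aza 3) in Aza against AGA and -0.13 to -0.05 for both treatments. The fit of only the 2 groups compared has no value for both treatments. Over all probe sets the count in AGA was 2, and 156 with block and trend, 44 with that fit without replicate 4, 7 without replicate 4 alone, 4 with 2 groups and 0 with the trend alone, either floor setting or dim probe sets left out. For Aza it was 2, and 0 to 7 over the alternatives, 0 with the block among others and 7 without Aza 1. For Aza against AGA it was 3, and 0 (trend alone, either floor setting, dim probe sets left out) to 189 (block and trend), and for both treatments 1, and 0 to 2. Low signal limits ITGA2, ITGB3, ITGB8 and the dim ITGB1 and ITGB5 probe sets.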
